A study of Mus musculus with 20 samples.

Results

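The mitochondrial genome of the mouse carries 37 genes, and all 37 were present in a table of read counts for 57010 genes from the liver and kidney of UM-HET3 mice. They were chosen by their GENCODE symbol, which begins with mt-, a rule that uses no measured value. Of the 37 genes, 13 are mRNAs, 2 are ribosomal RNAs (rRNAs) and 22 are transfer RNAs (tRNAs). UM-HET3 is a genetically heterogeneous mouse stock that is bred as a cross of several inbred strains. The animals were 12-month-old males that carried a subcutaneous osmotic minipump for 28 days. In 6 mice the pump delivered 7c, a mixture of 7 compounds. Repsox, tranylcypromine, DZNep, CHIR99021, forskolin and TTNPB were each given at 0.1 mg/kg/day, and valproate at 1 mg/kg/day. In the other 4 mice the pump held the vehicle of DMSO and PEG300. Liver and kidney gave 6 7c and 4 vehicle libraries each, each library labelled as a biological replicate, and the RNA was selected by its poly(A) tail. Whole tissue was sequenced, so that fewer cells of a type and less RNA per cell cannot be told apart in any value below.

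Mitochondrial DNA is a small circle that is present in many copies per cell. Both strands are transcribed from end to end, and the long transcripts are cut at the tRNAs, which punctuate the mRNAs and rRNAs. The 13 mRNAs encode the core of the respiratory chain and the ATP synthase, namely 7 subunits of complex I (mt-Nd1 to mt-Nd6 and mt-Nd4l), cytochrome b of complex III (mt-Cytb), 3 subunits of complex IV (mt-Co1 to mt-Co3) and 2 subunits of complex V (mt-Atp6 and mt-Atp8). The 2 rRNAs, mt-Rnr1 and mt-Rnr2, form the small and large subunits of the mitochondrial ribosome. All other subunits and all proteins that copy, transcribe and translate the circle are encoded in the nucleus and imported. Hepatocytes and cells of the proximal tubule are both rich in mitochondria.

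The mitochondrial genes lie on chromosome M of GRCm39, 28 on the plus and 9 on the minus strand, with mt-Nd6 the only mRNA on the minus strand. Some features of their sequence bear on how reads were counted. The mRNAs mt-Co3, mt-Nd4 and mt-Cytb end on a single T after their last whole codon, and in mitochondria the poly(A) tail itself completes such a stop codon. Their last 18 bases in GRCm39 are shown because these tails are what the library preparation selected. Capitals mark the base left over after the last whole codon.
mt-Co3: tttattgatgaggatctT
mt-Nd4: ttacaggcctgacaataT
mt-Cytb: tactaaaattatatccaT

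Neighbouring genes also overlap. The end of mt-Atp8 and the start of mt-Atp6 share 43 bases, which are shown in capitals with 12 bases on each side (chrM:7915-7981, plus strand), and reads from this stretch belong to both genes.
mt-Atp8 and mt-Atp6 overlap: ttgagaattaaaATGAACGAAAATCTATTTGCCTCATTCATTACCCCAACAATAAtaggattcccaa

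Another feature is a nuclear copy. When chromosome M was aligned to the nuclear chromosomes of GRCm39, 1 alignment of at least 1000 bases with at least 98% identity was found. It covers 4654 bases on the minus strand of chromosome 1 (chr1:24650616-24655269) at 99.9% identity, differs by 2 substitutions and 1 inserted base, and annotated pseudogenes lie in it. The mRNAs mt-Co2, mt-Atp8, mt-Atp6, mt-Co3, mt-Nd3 and mt-Nd4l lie wholly inside the copied stretch, as do the ends of mt-Co1 and mt-Nd4 that face it. The single base that separates mt-Nd3 from its copy is shown in capitals in the 41 bases around it (chrM:9441-9481, plus strand, and chr1:24652178-24652218, minus strand). Counted on chromosome M from 1, the substitution is T9461C, with the mitochondrial base first.
mt-Nd3: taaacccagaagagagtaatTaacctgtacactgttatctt
mt-Nd3 copy: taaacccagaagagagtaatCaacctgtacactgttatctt

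Every window of 100 bases in mt-Co2, mt-Atp8, mt-Atp6, mt-Co3 and mt-Nd4l had an identical match elsewhere in the genome, as did 98.8% of those in mt-Nd3. In mt-Nd4, 60.8% of such windows had an identical match, in mt-Co1 30.8%, in mt-Nd2 3.19% and in mt-Rnr2 1.21%. In mt-Nd1, mt-Nd5, mt-Nd6, mt-Cytb and mt-Rnr1 none had. How reads with several positions were treated is not given in the sources used here.

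The libraries held 28383359 to 34153084 counts in liver and 27855849 to 64872451 in kidney, and every 7c liver was sequenced less deeply than every vehicle liver. The names of all liver libraries end in r and those of the kidney libraries do not, and the sources used here do not say why. Whatever this marks cannot be told apart from tissue in any comparison of kidney and liver. Summed markers of hepatocytes (8 genes) were at 76449 to 100262 CPM (counts of a gene per 1000000 counts of the library) in liver and at 132 to 373 CPM in kidney, and those of the proximal tubule (8 genes) at 39506 to 69836 CPM in kidney and 0.491 to 1.70 CPM in liver. Some libraries stood apart. The 7c liver replicate 6 held 607 CPM of skeletal muscle markers against 0.327 to 1.80 CPM in the other livers. The vehicle kidney replicate 2 and the 7c kidney replicate 5 held the most proximal tubule markers of their groups (61047 and 69836 CPM) and the least of the thick limb and distal tubule (3183 and 3159 CPM, against 4033 to 5085 CPM in the other kidneys).

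Kidney libraries drew a larger part of their counts from mitochondrial DNA than every liver library, with the exception of 1 of the 10 kidneys. The 37 genes made up 5.78%, 4.61%, 4.82% and 3.61% of the counts in the 4 vehicle livers. In the 7c livers the lowest share was 3.94%, the median 4.44% and the highest 5.17%. The vehicle kidneys had 9.01%, 6.73%, 9.15% and 8.01%, and in the 7c kidneys the lowest was 3.98%, the median 6.73% and the highest 9.10%. All 4 vehicle kidneys were thus above all livers, the 7c livers lay within the range of the vehicle livers, and the 7c kidneys reached from the level of the livers to that of the vehicle kidneys. The lowest share in kidney belonged to 7c replicate 5 and the lowest among vehicle kidneys to replicate 2, which are the 2 libraries with the unusual tubule markers, and the part of tissue sampling in these values was not tested. The skeletal muscle in 7c liver replicate 6 went with a share of 4.38%, within the range of the other livers.

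**Figure D1:**
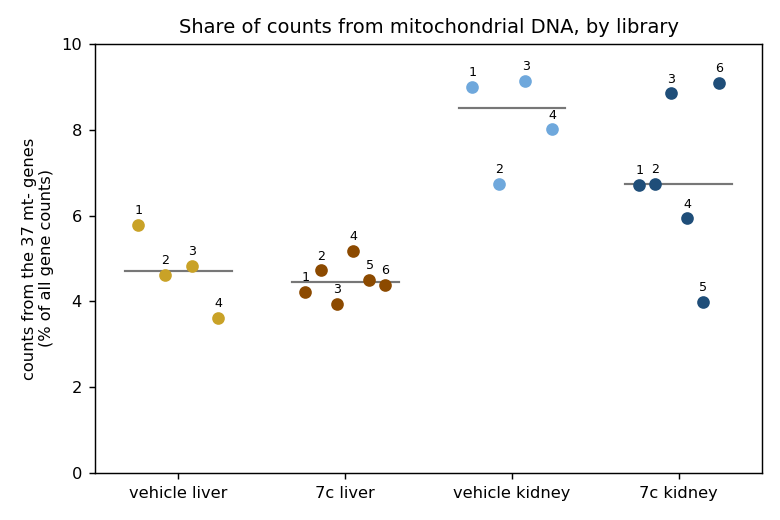
Share of all gene counts that came from the 37 mitochondrial genes (y axis, %) in each of the 20 libraries, by group (x axis). Points are libraries with their replicate number, and grey lines are group medians, which were 4.71% in vehicle liver, 4.44% in 7c liver, 8.51% in vehicle kidney and 6.73% in 7c kidney.

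The mRNAs supplied 97.5% to 99.2% of the mitochondrial counts in every library. The rRNAs, which carry at most a very short tail, gave 0.771% to 2.24%. Of the 42955744 mitochondrial counts in all libraries together, 44541 fell on tRNAs, and mt-Tp, the tRNA for proline, took 43840 of these. The 14 tRNAs of the plus strand held 33 counts in all, and 6 of them (mt-Tf, mt-Tv, mt-Td, mt-Tk, mt-Tg and mt-Tr) were at 0 in every library. The other minus-strand tRNAs held 668 counts, of which 443 were of mt-Te, the tRNA for glutamate, 91 of mt-Tc and 89 of mt-Tn. Between 1 and 20 counts over all libraries were found for 11 tRNAs. The sequence of mt-Tp is shown because it is the only tRNA gene with more than 53 counts in any library (chrM:15356-15422, minus strand).
mt-Tp: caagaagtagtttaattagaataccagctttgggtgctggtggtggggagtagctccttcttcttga

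Per kilobase (kb) of gene, the mRNAs fell into 2 tiers that followed the nuclear copy. The 6 mRNAs inside it had group medians of 6.31 to 48.3 CPM per kb in liver and 8.55 to 221 CPM per kb in kidney. The 7 mRNAs that lie outside it or only partly inside had medians of 1221 to 13920 CPM per kb in liver and 2051 to 18028 CPM per kb in kidney. The lowest median outside exceeded the highest inside 34.2 times in vehicle liver, 25.3 times in 7c liver, 13.3 times in vehicle kidney and 10.5 times in 7c kidney. The pseudogenes of the copy held counts of the same order as the mRNAs inside. In vehicle liver, mt-Co2 had 935 to 1348 counts and its copy Gm28661 977 to 1423. In vehicle kidney they had 4103 to 7447 and 4352 to 8626. Of the counts of each such pair, mt-Co2 received 43.0% to 52.0%, mt-Co3 49.6% to 62.1% (against Gm28437), mt-Atp6 32.2% to 50.1% (against Atp6-ps), mt-Nd3 23.3% to 54.5% (against Gm28438) and mt-Nd4l, with few counts, 17.2% to 63.1% (against Gm10222). The pseudogenes that copy part of mt-Co1 (Gm29216) and of mt-Nd4 (Gm28439) left at least 99.2% and 99.6% of their pair's counts with the mRNA. The counts of mt-Co2, mt-Atp8, mt-Atp6, mt-Co3, mt-Nd3 and mt-Nd4l are therefore uncertain as levels of the mitochondrial mRNA, and the part of the copy in the low tier was not tested.

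**Figure D2:**
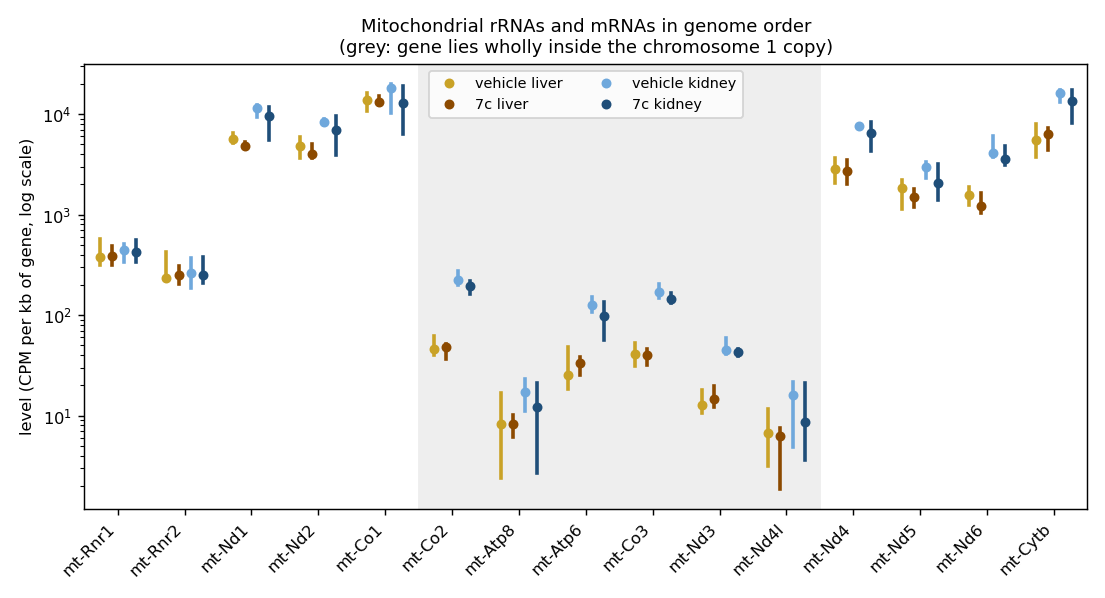
Level of the 2 rRNAs and 13 mRNAs (y axis, CPM per kb of gene, log scale) in genome order (x axis). Points are group medians and lines reach from the lowest to the highest library of each group (n = 4 vehicle, n = 6 7c), and the grey band marks genes wholly inside the chromosome 1 copy, whose medians were 221 or less while those of the other mRNAs were 1221 or more.

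Outside the copy, mt-Co1, the catalytic subunit of cytochrome c oxidase, had the highest level in liver, with a median of 13920 CPM per kb in vehicle. The complex I subunit mt-Nd1 (5629), mt-Cytb (5564) and mt-Nd2 (4822) followed with ranges that overlapped, and then mt-Nd4 (2820), mt-Nd5 (1824) and mt-Nd6 (1568), of which neighbours again overlapped. In vehicle kidney mt-Co1 (18028 CPM per kb) overlapped with mt-Cytb (16339), and below them mt-Nd1 (11372), mt-Nd2 (8266), mt-Nd4 (7543), mt-Nd6 (4115) and mt-Nd5 (2946) each lay apart from the next in order, mt-Nd2 and mt-Nd4 only narrowly. When only windows of 100 bases without an identical match elsewhere were counted as length, mt-Nd4 had 20706 CPM per kb in vehicle kidney, above mt-Cytb (17887), and 7741 in vehicle liver, above mt-Nd1 (6279). The place of mt-Nd4 in the order thus depended on the length it was divided by.

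The make-up of the mitochondrial mRNA differed between the tissues. This comparison within a library needs no scaling between libraries. In liver mt-Co1 made up 44.0%, 47.1%, 45.8% and 47.1% of the counts of the 13 mRNAs in vehicle and 45.03% to 49.7% (median 47.4%) in 7c. In kidney it made up 34.2%, 23.8%, 34.1% and 31.9% in vehicle and 25.3% to 33.0% (median 29.8%) in 7c. No kidney library reached the lowest liver library. The opposite order was seen for mt-Cytb, at 12.1% to 16.7% over all livers and 21.8% to 24.1% over all kidneys. It was also seen for mt-Nd4, at 7.16% to 9.47% in liver and 11.5% to 15.6% in kidney. The shares of mt-Nd1, mt-Nd2 and mt-Nd5 overlapped between the tissues. The minus-strand mRNA mt-Nd6 made up 1.31% to 2.07% in liver and 2.16% to 4.76% in kidney. Of these shares no test was made, since they were singled out after their values had been seen.

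**Figure D3:**
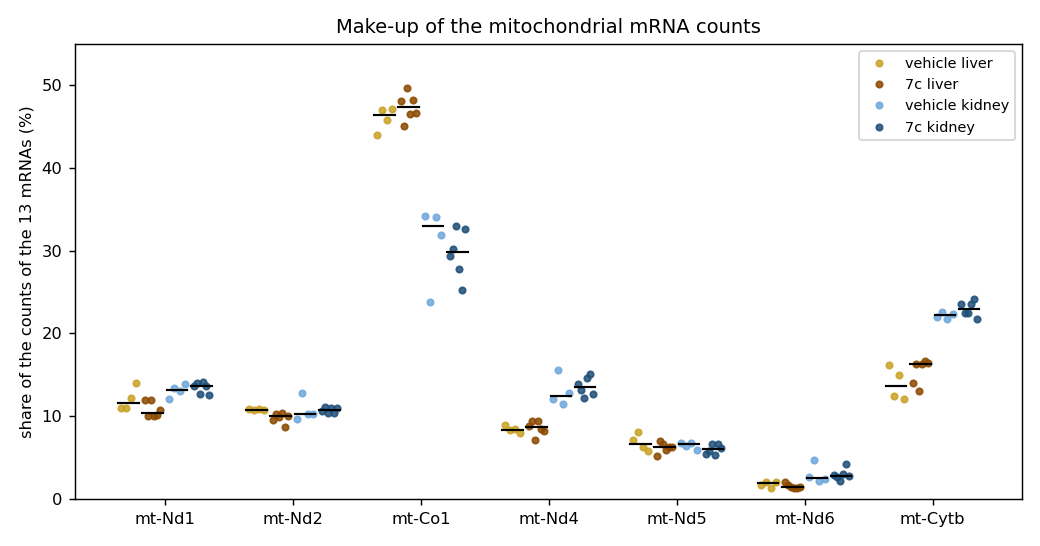
Share of the counts of the 13 mitochondrial mRNAs (y axis, %) taken by the 7 mRNAs that do not lie wholly inside the nuclear copy (x axis). Points are libraries and black lines are group medians, and mt-Co1 lay at 44.0% to 49.7% in liver and 23.8% to 34.2% in kidney while mt-Cytb and mt-Nd4 lay higher in kidney.

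Ratios between single members also separated the tissues in some cases. There were 273 to 390 counts of mt-Co1 per 100 counts of mt-Cytb in liver and 105 to 157 in kidney. The ratio was lowest in 7c kidney replicate 5 and vehicle kidney replicate 2. For mt-Tp there were 0.911 to 2.07 counts per 100 counts of mt-Cytb in liver and 0.239 to 0.302 in kidney, and 9.96 to 17.0 against 1.18 to 3.04 per 100 counts of mt-Nd6. Between mt-Nd6 and mt-Nd5, whose ends overlap on opposite strands, the ratio did not separate the tissues, at 20.9 to 39.5 per 100 in liver and 31.7 to 74.5 in kidney. The rRNA mt-Rnr1 stood at 5.81 to 9.14 counts per 100 counts of mt-Nd1 in liver and 2.92 to 6.66 in kidney, which overlapped. The strand setting of the counting is not given in the sources used here, so reads of mt-Nd6, mt-Tp or mt-Te and reads from the opposite strand of the same place cannot be told apart.

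To set kidney against liver in a test, edgeR's quasi-likelihood F-test was used with TMM scaling and Benjamini-Hochberg adjustment over all genes tested, and a gene was called at an adjusted p below 0.05. Vehicle and 7c mice gave 2 comparisons that share no library. TMM sets the libraries so that most genes do not differ, and its factors were 0.764 to 0.863 in liver and 1.11 to 1.30 in kidney. Against library totals alone this lowered every kidney value. The median log2 fold change of all genes tested was 0.06 with TMM and 0.66 with library totals in vehicle, and 0.08 and 0.70 in 7c. Both are given for this reason.

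The mRNAs mt-Cytb of complex III and mt-Nd4 and mt-Nd6 of complex I rose in kidney relative to liver, and mt-Tp fell. Higher counts were also found for mt-Co2, mt-Co3, mt-Atp6 and mt-Nd3, which lie wholly inside the nuclear copy, so that these 4 are uncertain as levels of the mitochondrial mRNA. Of 17 members that passed the filter on low counts, 7 were higher in vehicle kidney and 1 lower, beside 27.7% and 25.7% of all 17245 genes tested and 53.4% in either direction. In 7c mice 7 were higher and 4 lower, beside 34.8% and 30.9% of 17117 genes and 65.7% in either direction. Members called in either direction came to 47.1% and 64.7%, and those called higher to 41.2% in each. The 7 higher members were the same in both comparisons, namely mt-Co2, mt-Co3, mt-Atp6, mt-Nd3, mt-Nd4, mt-Nd6 and mt-Cytb, and mt-Tp was lower in both. With library totals 11 (64.7%) were higher and 1 (5.9%) lower in each comparison, beside 47.3% and 13.9% of all genes in vehicle (61.2% in either direction) and 57.5% and 16% in 7c (73.5%). The 11 include mt-Te, which reached the filter of 10 counts in 2 of 4 livers and 4 of 4 kidneys in vehicle and in 2 of 6 livers and 6 of 6 kidneys in 7c, and so was tested in 7c through the tissue where it was high. Without it, 10 of 16 members were higher with library totals in each comparison. The 7 higher members and mt-Tp, 8 in all, were called in the same direction under both scalings in both comparisons. In CPM, 11 members in vehicle and 9 in 7c were higher in every kidney than in every liver, beside 45.4% and 43.6% of all genes tested, and mt-Tp was lower in every kidney, beside 13.5% and 12% of genes. Both of these higher counts include mt-Te, which in 7c was tested through its kidney counts and carries little weight there.

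Of the complex IV subunits, mt-Co2 and mt-Co3 were called higher in kidney, and mt-Co1 was not called higher by either scaling. Differences between subunits were not tested. The level of mt-Co1 (ENSMUSG00000064351, chrM:5328-6872) was 24883, 21322, 21691 and 16603 CPM in vehicle liver and 30385, 15831, 30822 and 25322 CPM in vehicle kidney, so that 3 kidneys were above all livers and replicate 2 below them. In 7c mice it was 19090 to 23527 CPM (median 20517) in liver and 9851 to 29471 CPM (median 19847) in kidney. With TMM its log2 fold change was -0.35 ± 0.23 (SE) in vehicle (adjusted p = 0.231) and -0.65 ± 0.22 in 7c (adjusted p = 0.0176 by edgeR). With library totals it was 0.28 and -0.01, neither of them called, and the call in 7c was also lost without 7c kidney replicate 4 (adjusted p = 0.0502). The direction of mt-Co1 in vehicle mice therefore turned with the scaling, while its lower share of the mitochondrial mRNA counts in kidney than in liver did not depend on it. The subunit mt-Co2, which binds cytochrome c in the same enzyme, was at 42.6, 27.6, 32.7 and 30.0 CPM in vehicle liver and at 155, 188, 135 and 147 CPM in vehicle kidney. In 7c mice it was at 25.2 to 35.4 CPM (median 33.0) and 111 to 150 CPM (median 133). The tissues did not overlap, and mt-Co2 was higher by 1.64 ± 0.20 on the log2 scale in vehicle (adjusted p = 4.37e-05) and 1.43 ± 0.10 in 7c (adjusted p = 6.08e-09 by edgeR), or 3.12 and 2.69 times. The remaining subunit, mt-Co3, gave 1.45 and 1.26. Both lie inside the nuclear copy, and their pseudogenes Gm28661 and Gm28437 had medians of 1053 and 730 counts over the livers and 5188 and 3221 over the kidneys.

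Cytochrome b, mt-Cytb (ENSMUSG00000064370, chrM:14145-15288), lies outside the copy. Its level was 9128, 5632, 7098 and 4263 CPM in vehicle liver and 19591, 15037, 19678 and 17792 CPM in vehicle kidney, and 4992 to 8246 CPM (median 7222) and 9406 to 19654 CPM (median 15337) in 7c. No kidney overlapped a liver. It was higher by 0.84 ± 0.25 in vehicle (adjusted p = 0.0142 by edgeR) and 0.54 ± 0.19 in 7c (adjusted p = 0.0181), and by 1.47 and 1.18 with library totals. In 7c the TMM call was lost without 7c liver replicate 1 (adjusted p = 0.0634) or replicate 3 (adjusted p = 0.0664).

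Among the complex I subunits, 3 of 7 were called higher in each comparison, mt-Nd3, mt-Nd4 and mt-Nd6. The level of mt-Nd4, a subunit of the proton-pumping arm, was 5025, 3775, 3998 and 2828 CPM in vehicle liver and 10776, 10365, 10423 and 10198 CPM in vehicle kidney, the 4 kidneys lying close together. In 7c it was 2747 to 4792 CPM (median 3706) and 5886 to 11423 CPM (median 8981). It rose by 0.81 ± 0.21 on the log2 scale in vehicle (adjusted p = 0.00726 by edgeR) and by 0.62 ± 0.17 in 7c (adjusted p = 0.00458). For mt-Nd6 the levels were 970, 911, 641 and 717 CPM in vehicle liver and 2318, 3167, 1953 and 1950 CPM in vehicle kidney, with no overlap, and it rose by 0.95 ± 0.25 in vehicle (adjusted p = 0.00739 by edgeR) and by 0.89 ± 0.14 in 7c (adjusted p = 3.16e-05). With TMM, mt-Nd1 (0.34 and 0.30), mt-Nd2 (0.18 and 0.12) and mt-Nd5 (0.11 and -0.06) were not called. In vehicle mt-Nd1 was called higher by DESeq2 (0.41, adjusted p = 0.00881) and limma-voom (0.35, adjusted p = 0.0274), and in 7c by DESeq2 (0.33, adjusted p = 0.0342). With library totals all 3 were called in both comparisons, with mt-Nd1 at 0.95 and 0.94. The short mt-Nd4l, with 17 to 231 counts per library, was not called, nor was mt-Atp8 of complex V, with log2 fold changes of 0.31 and 0.03. The other complex V subunit, mt-Atp6, was higher by 1.499 ± 0.30 and 1.04 ± 0.18.

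Neither rRNA was called higher in kidney by TMM or library totals. In CPM mt-Rnr1 was at 540, 304, 335 and 391 in vehicle liver and at 475, 381, 485 and 321 in vehicle kidney, which overlapped. With TMM its log2 fold changes were -0.53 ± 0.22 in vehicle (adjusted p = 0.0611 by edgeR) and -0.50 ± 0.15 in 7c (adjusted p = 0.00748). Those of mt-Rnr2 were -0.67 ± 0.28 (adjusted p = 0.0629) and -0.59 ± 0.16 (adjusted p = 0.00461). With library totals the values were 0.08 and 0.14 for mt-Rnr1 and -0.04 and 0.05 for mt-Rnr2, and none was called. In vehicle mt-Rnr2 was called lower by the likelihood ratio test, limma-voom and without a filter (adjusted p = 0.0409 to 0.0494), and mt-Rnr1 by the likelihood ratio test (adjusted p = 0.0461). The proline tRNA mt-Tp was at 104, 107, 83.7 and 88.4 CPM in vehicle liver and 51.7, 37.3, 59.3 and 48.9 CPM in vehicle kidney, and at 67.2 to 93.5 CPM (median 81.9) and 23.4 to 50.3 CPM (median 38.4) in 7c. Every kidney was below every liver. It fell by 1.58 ± 0.16 on the log2 scale in vehicle (adjusted p = 7.11e-06 by edgeR) and by 1.71 ± 0.15 in 7c (adjusted p = 8.43e-08), and kept its direction with library totals (-0.96 and -1.07). For mt-Te, with 4 to 16 counts in vehicle livers and 31 to 53 in vehicle kidneys, the log2 fold change was 1.498 ± 0.59 (adjusted p = 0.0507 by edgeR) and in 7c 0.87 ± 0.43 (adjusted p = 0.0895). In vehicle it was called with library totals (2.10, adjusted p = 0.0082) and by RLE, DESeq2, the likelihood ratio test and limma-voom (adjusted p = 0.0134 to 0.0398), and in 7c with library totals (adjusted p = 0.00617) and the likelihood ratio test (adjusted p = 0.0316). Since mt-Te passed the filter in 7c through its kidney counts, its calls there carry little weight, and without a filter it was not called by edgeR in either comparison (adjusted p = 0.103 and 0.191).

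**Figure D4:**
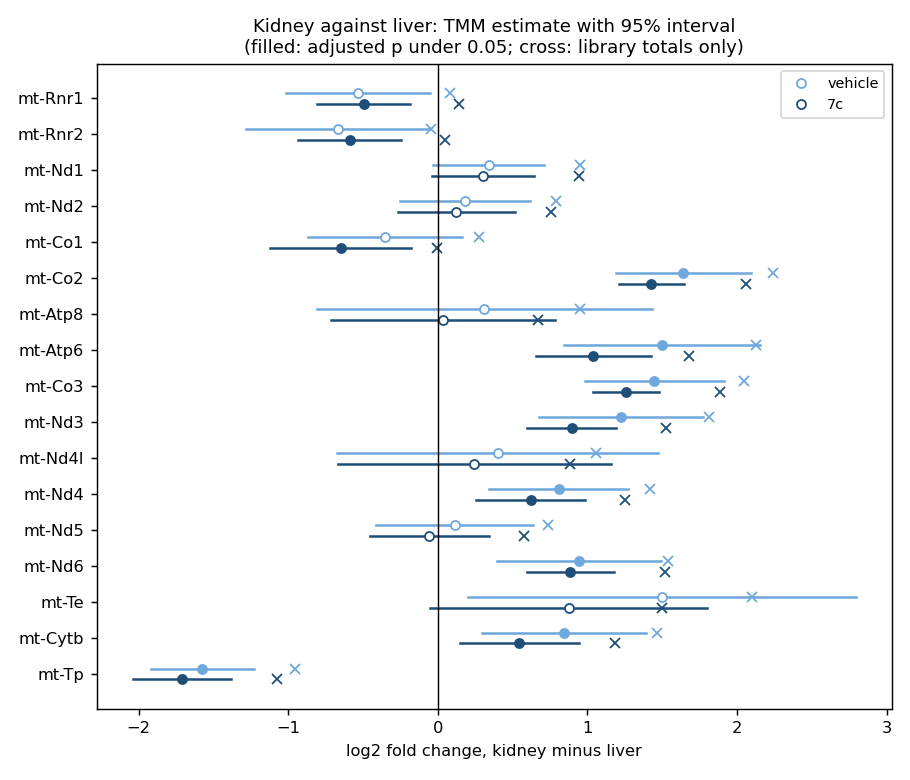
Log2 fold change of kidney against liver (x axis) for the 17 members that passed the filter (y axis, genome order), in vehicle (light) and 7c (dark) mice. Circles with lines are TMM estimates with 95% intervals, filled where the adjusted p was below 0.05, and crosses are estimates from library totals. The crosses lie to the right of the circles, and mt-Tp is below 0 by both while mt-Co1 and the rRNAs lie between -0.04 and 0.28 with library totals.

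With 7c, no mitochondrial gene passed the threshold in liver. The tested members were the 13 mRNAs, the 2 rRNAs and mt-Tp. Of these 16, 0 were called by edgeR and 0 had an unadjusted p below 0.05, beside 0.00666% of 15012 genes called (1 gene, Zfp949) and 565 at an unadjusted p below 0.05. DESeq2, the edgeR likelihood ratio test and limma-voom called 6, 7 and 1 of all genes, of which 0 were members. The CPM groups of every tested member overlapped, beside 0.726% of genes whose groups did not. The median log2 fold change of the 13 mRNAs was -0.05, that of all genes 0.00. For mt-Co1 it was 0.01 ± 0.13, with levels of 16603 to 24883 CPM in vehicle and 19090 to 23527 in 7c. For mt-Cytb it was 0.09 ± 0.21, for mt-Nd1 -0.18 ± 0.11, for mt-Nd2 -0.18 ± 0.15, for mt-Nd4 -0.01 ± 0.17, for mt-Nd5 -0.19 ± 0.17 and for mt-Nd6 -0.24 ± 0.15. With 6 and 4 mice the 95% interval of each of these 7 mRNAs included 0. The lowest bound was -0.57 (mt-Nd6) and the highest 0.53 (mt-Cytb), and the intervals differed between genes, with -0.41 to 0.04 for mt-Nd1. For the mRNAs inside the copy the values were -0.03 (mt-Co2), -0.05 (mt-Co3), 0.14 (mt-Atp6), -0.13 (mt-Atp8), 0.18 (mt-Nd3) and -0.34 (mt-Nd4l). The rRNAs mt-Rnr1 and mt-Rnr2 gave -0.05 and -0.12 and mt-Tp -0.20. Every adjusted p was 1.00.

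In kidney, too, no member was called, but all 13 mRNAs had a log2 fold change below 0. Of 17 members, 0 were called by edgeR and 1, mt-Te, had an unadjusted p below 0.05, beside 0% of 17749 genes called and 463 with an unadjusted p below 0.05. Over all genes DESeq2 called 18, the likelihood ratio test 14 and limma-voom 2, none of them a member. The median of the 13 mRNAs was -0.26, that of all genes -0.01. The level of mt-Co1 was 15831 to 30822 CPM in vehicle and 9851 to 29471 CPM in 7c, and its log2 fold change -0.32 ± 0.25. For mt-Cytb, at 15037 to 19678 and 9406 to 19654 CPM, it was -0.23 ± 0.16, for mt-Nd1 -0.24 ± 0.16, for mt-Nd2 -0.26 ± 0.18, for mt-Nd4 -0.22 ± 0.14, for mt-Nd5 -0.39 ± 0.20 and for mt-Nd6 -0.32 ± 0.18. The 95% intervals of these 7 reached from -0.86 to 0.22. The mRNAs inside the copy had values of -0.26 (mt-Co2), -0.26 (mt-Co3), -0.35 (mt-Atp6), -0.44 (mt-Atp8), -0.17 (mt-Nd3) and -0.53 (mt-Nd4l), while mt-Rnr1 and mt-Rnr2 gave -0.04 and -0.06 and mt-Tp -0.37. Every adjusted p was 0.997. Members share libraries and transcripts, so their common sign is not 13 separate observations. Without vehicle kidney replicate 2 and 7c kidney replicate 5 the median was -0.18 and 12 of 13 mRNAs were below 0.

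The tRNA mt-Te was the only member whose kidney groups did not overlap, at 1.26, 1.34, 1.01 and 1.11 CPM in vehicle and 0.566 to 0.976 CPM (median 0.813) in 7c, beside 0.727% of all genes tested. These levels rest on 31 to 53 and 20 to 53 counts. By edgeR the log2 fold change of mt-Te was -0.64 ± 0.29, with an adjusted p of 0.997. The tRNAs mt-Tc (at most 11 counts in a library) and mt-Tn (at most 12) did not pass the filter in either tissue. White fat markers summed to 10.9 to 63.7 CPM in 7c kidneys and 0.555 to 14.6 CPM in vehicle kidneys, with 0 of 6 called at a median log2 fold change of 2.26. Hepatocyte markers had a median log2 fold change of -0.94 in kidney, with 0 of the 7 tested called. Red blood cell markers summed to 352 to 1217 CPM in vehicle kidneys and 520 to 2303 CPM (median 844) in 7c kidneys, which overlapped, and 0 of 6 were called at a median log2 fold change of 0.82 beside -0.01 over all genes. The highest were 7c kidneys 1 (2303 CPM) and 5 (2128 CPM). The share of mitochondrial counts was 6.72% in the former, near the 7c kidney median of 6.73%, and 3.98% in the latter, the lowest of the kidneys. In liver these markers summed to 441 to 595 CPM in vehicle and 383 to 1239 CPM in 7c, with 0 of the 5 tested called at a median of 0.79. The part of these marker lists in the 7c and vehicle values was not tested.

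**Figure D5:**
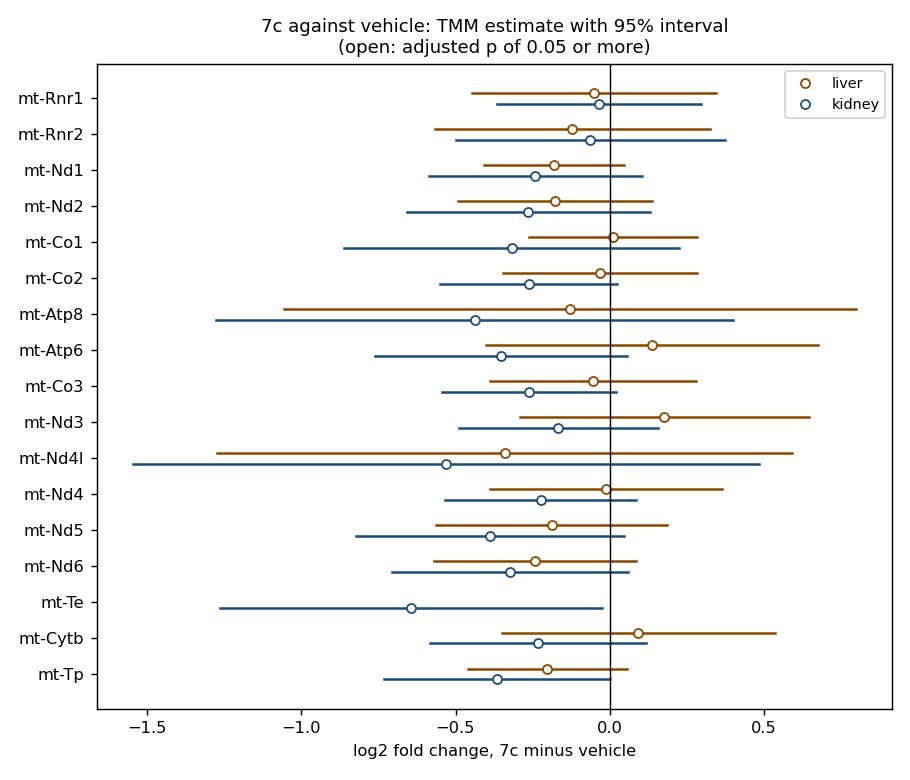
Log2 fold change of 7c against vehicle (x axis) for the tested members (y axis, genome order) in liver (brown) and kidney (blue), n = 6 7c and 4 vehicle each. Circles with lines are TMM estimates with 95% intervals, and all are open because no adjusted p was below 0.05. In kidney all 13 mRNAs lie left of 0, and mt-Te was tested in kidney alone.

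Whether the response to 7c differed between the tissues was asked with the interaction of treatment and tissue over all 20 libraries. Of 16 members 0 were called by edgeR and 0 had an unadjusted p below 0.05, beside 0.00706% of 14163 genes called (1 gene, Ces1c). DESeq2, the likelihood ratio test and limma-voom called 16, 22 and 0 of all genes, of which 0 were members. The response of the 13 mRNAs in kidney minus that in liver had a median of -0.21, with -0.32 ± 0.32 for mt-Co1, -0.32 ± 0.30 for mt-Cytb, -0.21 ± 0.26 for mt-Nd4 and -0.05 ± 0.22 for mt-Nd1. Over all 16 members the estimates lay between -0.48 (mt-Atp6) and 0.07 (mt-Rnr2).

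The nuclear partners of the mitochondrial subunits gave 0 calls with 7c in either tissue. The medians of the nuclear subunits were 0.12 in liver and 0.08 in kidney for complex I (36 genes), 0.05 and 0.01 for complex II (4 genes), 0.05 and 0.09 for complex III (9 genes), 0.11 and 0.08 for complex IV (11 genes) and 0.08 and 0.06 for complex V (18 genes). Values of single genes included Ndufv1 of complex I (0.02 and 0.10), Cox4i1 of complex IV (0.10 and 0.19) and Atp5f1b of complex V (0.05 and -0.04). In kidney the medians of the nuclear subunits were above 0 and that of the mitochondrial mRNAs below 0, a difference that was not tested.

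Between tissues, the calls among nuclear subunits depended on the scaling. With TMM, beside 27.7% of all genes higher and 25.7% lower, in vehicle mice 8 of 36 complex I subunits were higher and 2 lower, 1 and 1 of 4 in complex II, 1 and 1 of 9 in complex III, 1 and 0 of 11 in complex IV and 4 and 0 of 18 in complex V. In 7c mice, beside 34.8% and 30.9%, the counts were 13 and 3, 1 and 2, 3 and 3, 5 and 0, and 8 and 0. The complex I subunit Ndufv1, which binds NADH, rose by 0.73 ± 0.22 in vehicle and 0.82 ± 0.16 in 7c. The catalytic ATP synthase subunit Atp5f1b rose by 0.75 ± 0.15 and 0.67 ± 0.11, and Atp5f1a by 0.41 ± 0.13 and 0.38 ± 0.10. The complex III subunit Uqcrc1 rose by 0.63 ± 0.21 and 0.67 ± 0.15, whereas Cyc1 passed in 7c (0.47 ± 0.13) and not in vehicle (0.36 ± 0.19), as did Cox6a1 of complex IV (0.44 ± 0.18 and 0.46 ± 0.32), a difference that was not tested. Cox4i1 (0.29 and 0.38) and Sdhb (0.24 and 0.22) were not called with TMM, and were called with library totals at 0.86 and 1.00 and at 0.82 and 0.85. Sdha, the flavoprotein of complex II, was at -0.27 ± 0.13 in vehicle and fell by 0.41 ± 0.09 in 7c with TMM, and with library totals it was higher at 0.34 and 0.22. With library totals, beside 47.3% and 57.5% of all genes, 30 and 33 of 36 complex I, 3 and 4 of 4 complex II, 6 and 6 of 9 complex III, 10 and 11 of 11 complex IV and 17 and 18 of 18 complex V genes were higher and 0 lower.

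Of the genes that transcribe the circle, Polrmt, the mitochondrial RNA polymerase, was higher in kidney by either scaling. Its level was 18.3 to 26.5 CPM in vehicle liver and 56.2 to 78.1 CPM in vehicle kidney, and it rose by 0.90 ± 0.18 in vehicle and 0.99 ± 0.12 in 7c (adjusted p = 0.00151 and 1.92e-06 by edgeR). Tfam, which packs mitochondrial DNA and starts transcription, was at 47.9 to 49.8 and 38.6 to 53.4 CPM. With TMM it fell by 0.64 ± 0.12 and by 0.59 ± 0.09, and with library totals at -0.02 and 0.04 without a call. The shares of all genes given above for each scaling are the background of the counts in the 4 lists of mitochondrial machinery (with TMM 27.7% higher and 25.7% lower in vehicle, 34.8% and 30.9% in 7c, and with library totals 47.3% and 13.9%, 57.5% and 16%). In the list of 10 transcription genes 1 was higher and 1 lower in vehicle, and 2 and 4 in 7c. With library totals it was 3 and 0, and 4 and 0.

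Lrpprc, which protects mitochondrial mRNAs and promotes their polyadenylation, behaved like Tfam, at -0.68 ± 0.16 and -0.74 ± 0.10 with TMM and -0.07 and -0.10 with library totals. Its partner Slirp had 0 to 21 counts and was not tested. Mtpap, the mitochondrial poly(A) polymerase (-0.17 and -0.09), and the replicative helicase Twnk (-0.29 and -0.15) were not called with TMM, and with library totals they were at 0.43 and 0.30 in vehicle, not called, and at 0.54 and 0.47 in 7c, called. Of 21 tested genes for RNA cutting, tailing and decay, 1 was higher and 5 lower in vehicle and 2 and 7 in 7c with TMM, and 11 and 0 in both with library totals. Fastk, an RNA-binding protein needed for mt-Nd6 RNA, rose in both (0.95 ± 0.15 and 0.96 ± 0.11).

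In the list of 32 genes for RNA modification and tRNA charging, 4 were higher and 8 lower in vehicle and 10 and 10 in 7c, and 18 and 2, and 21 and 3, with library totals. The mitochondrial arginyl-tRNA synthetase Rars2 rose by 1.32 ± 0.15 and 1.198 ± 0.11. The asparaginyl-tRNA synthetase Nars2 fell by 1.58 ± 0.13 and by 1.77 ± 0.13, and the RNA methyltransferase Nsun2 fell by 1.08 ± 0.13 and by 0.97 ± 0.08. All 3 kept their direction and call with library totals. Of 15 genes for replication and maintenance, 2 were higher and 6 lower in vehicle and 2 and 7 in 7c, and 4 and 2, and 7 and 2, with library totals. Among them the nuclease Dna2 fell by 1.62 ± 0.16 in vehicle and fell by 1.505 ± 0.18 in 7c, and Rrm2b, a ribonucleotide reductase subunit that supplies nucleotides for mitochondrial DNA, rose by 1.998 ± 0.35 in vehicle and 2.06 ± 0.18 in 7c. With 7c against vehicle 0 genes of these 4 lists were called in liver or kidney, where Polrmt was at 0.02 ± 0.14 and 0.08 ± 0.15, Tfam at 0.08 ± 0.08 and 0.10 ± 0.11, Lrpprc at -0.05 ± 0.10 and -0.13 ± 0.14, Mtpap at -0.17 ± 0.16 and -0.12 ± 0.13 and Twnk at -0.11 ± 0.11 and 0.01 ± 0.17.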

How the data were processed

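Poly(A) RNA of liver and kidney was measured in 20 libraries. The authors made stranded libraries, aligned reads to GRCm39 with STAR 2.7.11b and counted them with featureCounts 2.0.6, and the deposited values are raw counts per gene. The annotation release, strand setting and treatment of reads with several positions are not given in the sources used here. Positions came from GENCODE vM39. Nuclear copies were found by aligning chromosome M to the other chromosomes of GRCm39, and identical windows by exact search on both strands.

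A gene was tested in a comparison if 50% or more of its libraries held 10 counts or more, and the fit was made with edgeR 4.0.16 under R 4.3.3 (TMM, quasi-likelihood F-test, Benjamini-Hochberg adjustment, threshold 0.05), with treatment, tissue or their interaction as terms. A prior count of 2 was used only for the log2 CPM behind the correlations of replicate numbers. The procedure was tested on simulated data. Alternatives were RLE, DESeq2 1.42.0, limma-voom 3.58.1, the likelihood ratio test, no filter, a replicate block, omission of each library and of mitochondrial genes from scaling, and 3 chosen after seeing the data: library totals, copy counts added to their genes, and 2 kidney libraries left out. The 13 mRNAs and 2 rRNAs were named in each comparison except the interaction, where only some are named, and of the tRNAs those called or the 4 with the most counts. Of the machinery lists Polrmt, Tfam, Twnk, Lrpprc, Slirp and Mtpap were always named with up to 5 further called genes, and of each list of nuclear subunits the 2 with the highest counts, of which 1 gene is not reported here. The member rule uses no measured value, but the subject and the lists were chosen with earlier results of these data known. Intervals are 95% intervals from the fits.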

Additional observations from a re-analysis of the deposited data

Results flagged for a closer look

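Of 68 groups of 4 to 6 libraries examined, 3 held a library far from the others, where chance gives about 1 in 20. Vehicle liver replicate 1 had 668 CPM of mt-Rnr2 against 370 CPM in the nearest other vehicle liver, and it also had the highest mt-Rnr1 level and the largest mitochondrial share (5.78%) of the livers. The 7c kidney replicate 3 had 597 CPM of mt-Rnr2 against 412 CPM in the nearest other. The 7c kidney replicate 6 had 2491 CPM of mt-Nd6 against 1938 CPM in the nearest other.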

How the results depend on the processing

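The number of members called stayed within 1.5 times in each comparison, at 0 for 7c in liver, in kidney and in the interaction, 8 to 12 for kidney against liver in vehicle and 10 to 12 in 7c. Over all genes, 7c in liver gave 1 call, and 6 by DESeq2, 7 by the likelihood ratio test, 4 without a filter and 0 with the replicate block; kidney gave 0, and 18, 14, 3 and 0, with 2 by limma-voom and 3 without the 2 kidneys lowest in thick limb markers; the interaction gave 1, and 16, 22, 11 and 0, with 0 by limma-voom and 2 without those kidneys. Without 1 library, liver gave 2 (without vehicle liver 2 or 7c liver 4) or 0 (vehicle liver 4), kidney 3 (7c kidney 5) or 1 (vehicle kidney 2 or 7c kidney 6), and the interaction 10 (7c kidney 6) or 2 (vehicle liver 3, 7c liver 4 or vehicle kidney 2, 3 or 4), and otherwise the main count. Library totals turned 4776 higher and 4439 lower genes in vehicle into 8160 and 2399, and 5960 and 5286 in 7c into 9843 and 2738.

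Of 83 log2 fold changes of members, these changed sign, and the cause was not tested. For 7c in liver they were mt-Co1 with library totals (-0.021), mt-Atp8 (0.21) and mt-Nd4 (0.0076) with limma-voom, and mt-Nd4 without a filter (0.0024). For kidney against liver with library totals they were mt-Rnr1 (0.082) and mt-Co1 (0.28) in vehicle and mt-Rnr1 (0.14), mt-Rnr2 (0.047) and mt-Nd5 (0.58) in 7c. In 7c mt-Atp8 also turned with mitochondrial genes left out of the scaling (-0.010) and with limma-voom (-0.12), and mt-Nd4l with copy counts added (-0.10). Without the 2 kidneys lowest in thick limb markers, mt-Nd3 turned for 7c in kidney (0.0037), mt-Nd5 between tissues in 7c (0.065), and mt-Rnr2 (-0.010), mt-Nd2 (0.058) and mt-Nd6 (0.18) in the interaction.

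Replicate numbers are shared between groups, but no source says that they mark 1 mouse. Liver and kidney deviations of the same number correlated at 0.013 to 0.259, over 0.1 in 7 of 10, and 8 of 10 matched best with their own number, a hint from the data and not from the design. Vehicle and 7c correlated at -0.063 to 0.301. Since not every correlation was over 0.1, the block was kept as an alternative. The main tissue and interaction tests thus treat libraries as independent, although both tissues were taken from the same mice. With the replicate block 9 members were called in vehicle tissue, with mt-Rnr2 added (edgeR adjusted p = 0.0123), and 11 in 7c, and 0 with treatment. For 7c against vehicle, the block set different mice that share a number side by side. 7c mice without a same-numbered vehicle mouse then added nothing to the estimate, so the block tests no real pairing there. With this block mt-Co2 (0.00092), mt-Atp8 (0.20), mt-Co3 (0.053) and mt-Nd4 (0.0038) turned in liver, mt-Rnr1 (0.012) and mt-Rnr2 (0.022) in kidney, and mt-Atp8 between tissues in 7c (-0.12).

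When 1 library at a time was left out, 25 values changed sign, with these ranges. For 7c in liver mt-Rnr1 ranged from -0.16 to 0.18, mt-Rnr2 from -0.21 to 0.19, mt-Co1 from -0.10 to 0.13, mt-Co2 from -0.11 to 0.15, mt-Atp8 from -0.45 to 0.42, mt-Atp6 from -0.039 to 0.54, mt-Co3 from -0.17 to 0.12, mt-Nd4l from -0.59 to 0.045, mt-Nd4 from -0.15 to 0.17 and mt-Cytb from -0.073 to 0.34. In kidney mt-Rnr1 ranged from -0.15 to 0.035, mt-Rnr2 from -0.21 to 0.12 and mt-Nd3 from -0.25 to 0.022. Between tissues in vehicle mt-Atp8 ranged from -0.022 to 0.85 and mt-Nd5 from -0.073 to 0.27, and in 7c mt-Atp8 from -0.13 to 0.27, mt-Nd4l from -0.054 to 0.44 and mt-Nd5 from -0.17 to 0.065. In the interaction mt-Rnr1 ranged from -0.20 to 0.14, mt-Rnr2 from -0.24 to 0.23, mt-Nd1 from -0.15 to 0.048, mt-Nd2 from -0.23 to 0.044, mt-Atp8 from -0.85 to 0.019, mt-Nd4l from -0.56 to 0.068 and mt-Nd6 from -0.21 to 0.15. Calls were gained in vehicle tissue for mt-Rnr1 without vehicle liver 2 or 3 (edgeR adjusted p = 0.0399 and 0.05), mt-Rnr2 without vehicle kidney 1 (0.0349), mt-Nd1 without vehicle kidney 2 (0.0219) and mt-Te without vehicle liver 2 (0.0275), and in 7c for mt-Nd1 without 7c kidney 5 (0.00599).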
